A study of Drosophila melanogaster with 11 samples.

Results

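Small nucleolar RNAs (snoRNAs) were followed in Drosophila S2 cells, at the places where they are annotated and in the genes that hold them. The members were all genes whose listed name starts with snoRNA:, which gave 271 of 16509 gene symbols, listed at 276 loci of 78680 exons. By name, 109 loci were Psi loci (box H/ACA guides), 98 were Me loci (box C/D guides) and 69 carried other names. Of the Psi loci, 46 named a position in 18S rRNA and 63 one in 28S rRNA. Of the Me loci, 30 named 18S, 64 named 28S and 4 named neither. A host gene was a longer gene whose span holds a locus, and 104 hosts were found for 264 loci.

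Transcript levels came from polyA RNA-seq of S2 cells, with 2 control libraries (labelled dTet Ctrl) and 2 dTet knockdown libraries (labelled dTet KD). Hydroxymethylcytosine in RNA was mapped by hMeRIP-seq, in which RNA bound by an antibody to the modified base is sequenced, in total RNA of 1 sample of yellow CRISPR S2 cells and 1 sample of dTet CRISPR S2 cells. S2 is an embryonic cell line with hemocyte character, dTet (CG43444, now Tet) encodes the fly Tet dioxygenase, and yellow is a pigmentation gene. All groups were S2 cells kept in serum-free medium, and the labels name neither the knockdown reagent, the control reagent, nor whether edited cells were clones or pools. The other 5 of the 11 samples, which are hMeRIP samples of unedited cells and input libraries, were not analysed here. Signal here means the reads in a 40-bp bin, averaged over the bins of a locus or exon and multiplied by 1 factor per library, so it is a level per length. One read falling in a bin added 0.340 or 0.390 to the value in control 1 or control 2, and 0.372 or 0.476 in knockdown 1 or knockdown 2. Hemocyte markers fitted the label, with 7 of 8 at a control signal of 1 or more (lowest 0.206 for NimC1, highest 77.6 for Cg25C). Of the neuron markers 1 of 4 reached 1 (elav, 1.87), and of the muscle and germline markers 0 of 4 each did. dTet itself had a signal of 6.93 and 8.01 in the controls against 4.88 and 6.60 in the knockdown libraries. Its log2 change of -0.34 (standard error 0.21) did not pass the test (limma, adjusted p = 0.9995), and it ranged from -0.15 without knockdown 1 to -0.52 without knockdown 2.

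As background, snoRNAs guide chemical changes on ribosomal RNA by base pairing. Box H/ACA snoRNAs direct pseudouridine formation by a complex built on the synthase Nop60B, the fly dyskerin, and box C/D snoRNAs direct 2′-O-methylation by a complex built on fibrillarin (Fib). In flies most snoRNAs lie in introns of other genes, often of ribosomal protein genes, and are released when the intron is removed. Some hosts, the Uhg genes, code for no known protein. Mature snoRNAs carry no poly(A) tail, so a polyA library is not designed to hold them. The files give no strand and no splice junctions, and RNA of the snoRNA, of the unspliced host and of the other strand cannot be told apart in these values.

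The annotated loci were short, from 45 to 310 bp with a median of 129.5, which is 2 to 8 bins. Psi loci were longer than Me loci, with medians of 139 and 79 bp. A total of 4 genes were listed at more than 1 locus, and 6 loci overlapped another snoRNA locus, so their reads are shared. Of the 271 names, 240 were found in the current RefSeq name table.

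Most snoRNA loci had little or no signal, and those with much of it lay in ribosomal protein genes. The mean control signal was 1 or more at 128 of 276 loci, or 46.4%, against 36.9% of all 16509 genes. For a locus of 4 bins, a signal of 1 is 11.8 reads summed over the bins in control 1 and 10.2 in control 2. The signal was 10 or more at 49 loci and 50 or more at 15. At 55 loci it was 0 in all 4 libraries, and at 115 it was above 0 in all 4. Of the 49 loci at 10 or more, 44 lay in ribosomal protein genes. Psi and Me loci had like shares, and loci of other names a lower one, with 53 of 109 Psi loci (48.6%), 48 of 98 Me loci (49.0%) and 27 of 69 other loci (39.1%) at 1 or more. Loci named for 28S reached 1 more often than those named for 18S in each family, 35 of 63 against 18 of 46 for Psi and 34 of 64 against 11 of 30 for Me. They also lay more often in ribosomal protein genes, 30 of 63 against 12 of 46 for Psi and 13 of 64 against 4 of 30 for Me. The part of the host in the difference by target was not tested. These shares are descriptions, since loci of 1 host share its transcript.

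The 10 highest loci all lay in ribosomal protein genes, and 8 of them are described here. snoRNA:M (X, 1376524 to 1376622, dm3), which lies in an intron of sta, the gene of ribosomal protein SA, had a signal of 100.02 and 114 in the controls against 156 and 103 in the knockdown libraries. snoRNA:Me28S-G980 (X, 1376591 to 1376661) overlaps it and had nearly the same values, 98.5 and 111 against 153 and 99.6. The groups overlapped at both loci, where knockdown 1 was the highest library.

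snoRNA:Or-CD12 (3L, 3221349 to 3221426) in RpL28 stood at 116 and 87.8 in the controls against 119 and 117 in the knockdown libraries. snoRNA:Psi28S-2444 in RpL11 was the highest Psi locus, at 83.3 and 85.4 against 82.7 and 78.1. snoRNA:Me18S-C1831 (2L, 4457602 to 4457673) in RpL27A was the highest locus named for 18S, at 83.1 and 83.9 against 87.6 and 78.6. The controls of the Psi28S-2444 and Me18S-C1831 loci differed by less than 3 units, and the knockdown values of the second lay on each side of them.

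snoRNA:Psi28S-3327c (3L, 13036470 to 13036609) in RpS4 had 73.7 and 62.7 in the controls against 72.5 and 42.9 in the knockdown libraries. The knockdown libraries lay further apart than the controls here, and knockdown 2 was the lowest library. snoRNA:Me18S-C419 in RpL15 had 57.1 and 73.8 against 72.6 and 53.4. snoRNA:Me28S-G2017 (3R, 7050029 to 7050121) in RpL3 had 72.6 and 51.8 against 92.2 and 59.6. The groups overlapped at both loci.

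Of these loci some were above the exon next to them, some level with it and some below. The exon nearest to snoRNA:Psi28S-3327c had a control signal of 67.9, against 68.2 at the locus. For snoRNA:Or-CD12 the exon stood at 102 and the locus at 102, and for snoRNA:M at 147 and 107. At snoRNA:Me28S-G2017 the locus was lower than its exon, 62.2 against 119.6. The locus was the higher at snoRNA:Me28S-G980, 105 against 85.8, and at snoRNA:Me18S-C419, 65.4 against 54.8.

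Loci within 100 bp of an exon had more signal than loci farther away. A total of 22 loci touched an exon of a longer gene, 151 lay 1 to 100 bp from one and are called near here, and 103 lay farther away and are called far. The boundary of 100 bp was chosen after the values had been seen, so no test is given. Near loci had a median control signal of 2.33, and 102 of 151 (67.5%) were at 1 or more. Far loci had a median of 0.127, and 16 of 103 (15.5%) were at 1 or more. All 49 loci at 10 or more touched an exon (3 loci) or were near one (46 loci), and 0 of 103 far loci reached 10. The median did not fall steadily with distance. It was 0.0976 for the 22 loci that touch an exon, 1.75 for the 7 loci at 1 to 25 bp, 1.56 for the 85 at 26 to 50 bp, 5.26 for the 38 at 51 to 75 bp and 6.03 for the 21 at 76 to 100 bp. Beyond that it was 0.559 for the 6 loci at 101 to 150 bp, 0.490 for the 12 at 151 to 200 bp, 0.342 for the 18 at 201 to 300 bp and 0.0976 for the 26 at 301 to 500 bp. The nearest exons differed between these classes too. Their median control signal was 1.37 at 26 to 50 bp, 13.2 at 51 to 75 bp and 21.3 at 76 to 100 bp. It was 0.205 at 101 to 150 bp, so the step at 100 bp is also a step in the level of the exons, and it was 6.28 at 151 to 200 bp and 21.5 at 201 to 300 bp.

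**Figure D1:**
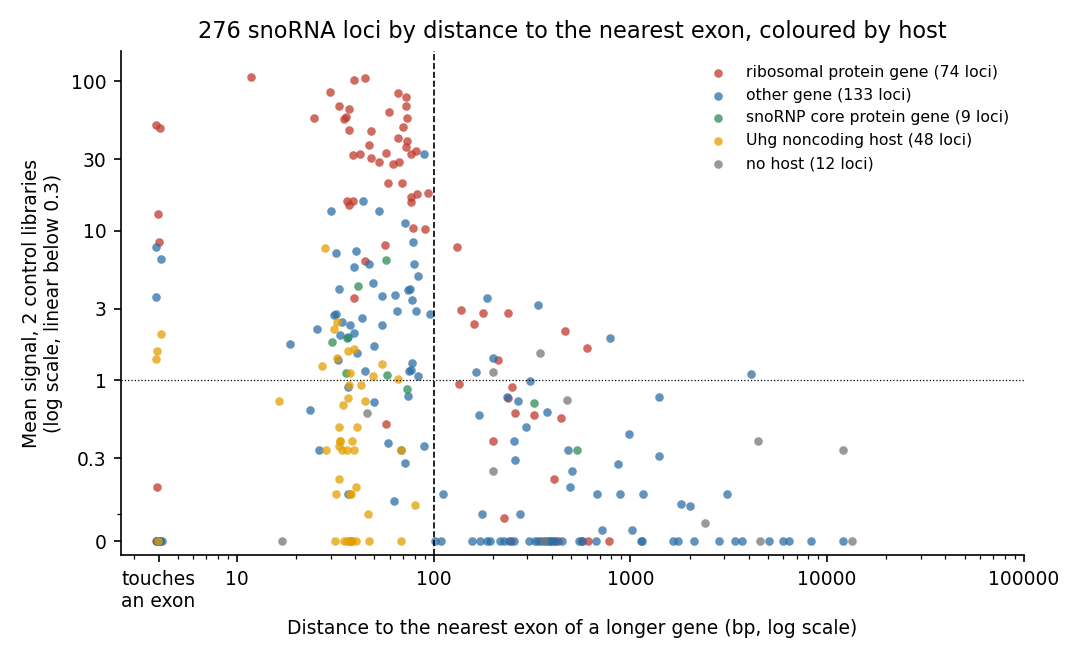
Mean control signal of each of the 276 snoRNA loci (y axis, log scale, linear below 0.3) against the distance in bp to the nearest exon of a longer gene (x axis, log scale, loci that touch an exon at the left), coloured by the class of host. The dashed line marks 100 bp and the dotted line a signal of 1. The loci at 10 or more all lie left of the dashed line, 44 of 49 of them in ribosomal protein genes, and the highest far locus stands at 7.74.

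Just inside the boundary, snoRNA:Psi18S-1347c, 89 bp from an exon of pAbp, had a signal of 32.5, and snoRNA:Psi18S-531, at 92 bp in RpL22, had 17.9. snoRNA:Me28S-A771, at 96 bp in CG13900, had 2.78. Just outside it, snoRNA:Psi28S-2179, at 132 bp in RpL22, had 0.949, and snoRNA:Or-CD10, at 134 bp in RpL7A, had 7.74, the highest value of a far locus. snoRNA:MeU2-A31 at 101 bp and snoRNA:Me18S-G894 at 108 bp were at 0 in the controls, but the exons next to them were at 0 and 0.124.

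Over all near loci, those beside a higher exon had a higher signal. Where that exon had a control signal of 1 or more, the near locus had a median of 52.0% of the exon's signal (n = 101 loci, from 4.99% to 849%). The far locus had a median of 1.75% of it (n = 67 loci, from 0% to 115%). Across loci, Spearman's rho between locus and nearest exon was 0.88 for the 151 near loci and 0.42 for the 103 far loci. Within ribosomal protein hosts alone rho was lower, 0.49 for the 45 near loci and -0.15 for the 22 far loci, so the values over all loci also hold the differences between host classes. These are correlations across loci of the same libraries, and loci of 1 host share its transcript. With the nearest exon on the left (84 near loci) or right (67), rho was 0.87 in each case. The median share of the exon's signal was 59.9% on the left and 40.8% on the right.

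The same difference was seen inside single hosts, where near and far loci share 1 gene. Distance was still to the nearest exon of any longer gene, which was not always listed under the host. For the far snoRNA:Me18S-G1358b in CG45050 that exon was listed under CG33937. Its control signal was 0, against 21.3 for the exon nearest to the near locus of this host. For snoRNA:Psi18S-531 (near) and snoRNA:Psi28S-2179 (far) in RpL22 the nearest exons were listed under CR42491, with control signals of 76.1 and 5.12. In pAbp the nearest exon stood at 105 for near and far loci alike. The exon level thus differed between near and far loci in some hosts, and its part was not tested. There were 16 hosts with near and far loci, holding 43 near and 60 far loci. The median of the near loci was above that of the far loci in 16 of 16 hosts, and this held in each of the 4 libraries taken alone. By the mean of the controls, every near locus was above every far locus in 15 of the 16 hosts. The exception was dom, the gene of the chromatin remodelling ATPase Domino, where near loci went down to 0. In single libraries this separation did not always hold. In control 1, the near snoRNA:Psi18S-1397 in CG10576 had 4.67 and the far snoRNA:Psi28S-1837b had 5.61. In control 2, the near snoRNA:Psi18S-640e in Arpc2 had 0 and the far snoRNA:Psi18S-525g had 0.586. RpS5a and Nop60B also had a control library with a far locus above a near one. Over the 16 hosts, 40 of 43 near loci and 10 of 60 far loci had a mean control signal of 1 or more, and the highest far mean was 3.54.

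**Figure D2:**
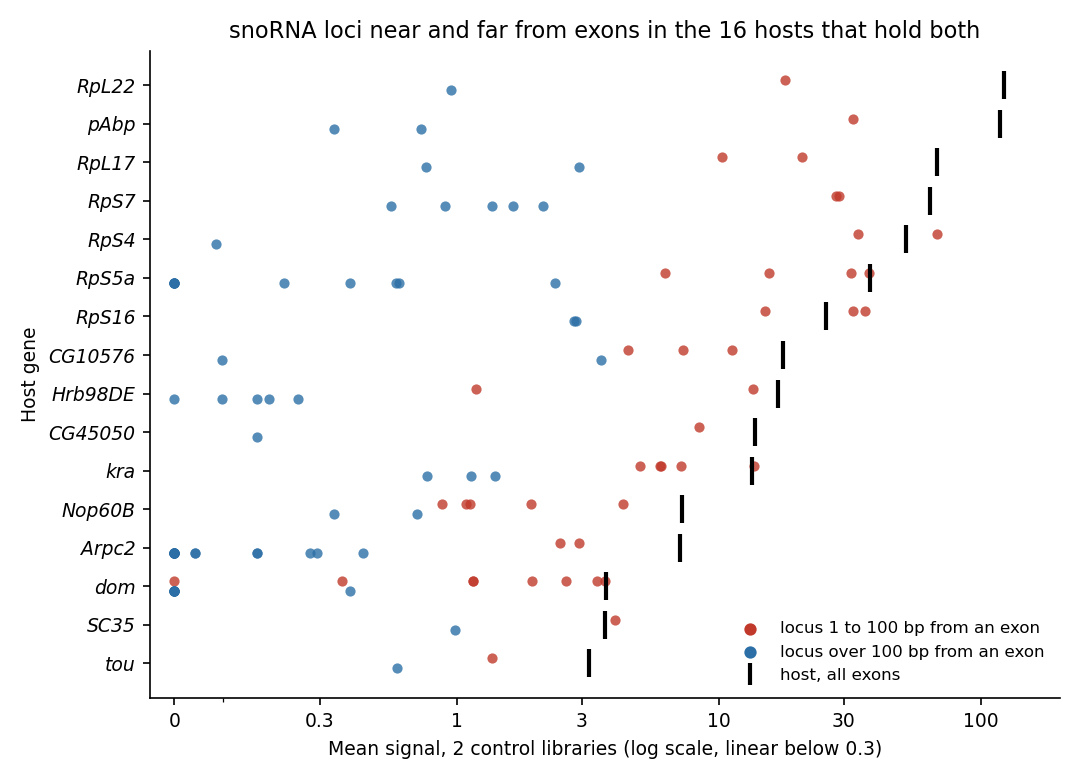
Mean control signal of single snoRNA loci (x axis, log scale, linear below 0.3) in the 16 hosts that hold near and far loci (rows). Red points are loci 1 to 100 bp from an exon, blue points are loci farther away, and black bars give the signal over all exons of the host. The red points lie to the right of the blue points in 15 of the 16 hosts, all but dom.

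RpS5a, the gene of a small-subunit ribosomal protein, held 14 Psi loci and shows the pattern along introns. Its own signal was 40.6 and 34.5 in the controls against 35.3 and 43.9 in the knockdown libraries. Its near loci were snoRNA:Psi28S-1135a (X, 17040644 to 17040791) at 39 bp, with 40.3 and 23.5 in the controls against 34.1 and 21.9 in the knockdown libraries, and 3 others with control means from 6.24 to 37.3. The next copy, snoRNA:Psi28S-1135b, lay 253 bp from an exon and had 0.425 and 0.781 in the controls against 0 and 0.715 in the knockdown libraries. snoRNA:Psi28S-1135c, at 408 bp, had 0.255 and 0.195 against 0 and 0.715. The copies d, e and f of this name, at 583, 598 and 252 bp, were at 0 in all 4 libraries. Within the 6 like-named copies only the copy nearest to an exon was above 1 in any library. The far locus of highest control mean in this host was snoRNA:Psi28S-1192d, at 163 bp. It had 0.255 and 4.49 in the controls against 6.14 and 0 in the knockdown libraries. These values overlapped those of the near snoRNA:Psi28S-1192a, at 44 bp, with 9.85 and 2.64 against 7.44 and 2.38.

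RpS7 showed the same order. snoRNA:Psi28S-2626, at 54 bp, had 34.2 and 23.1 in the controls against 28.6 and 22.5 in the knockdown libraries. snoRNA:Psi28S-2149, at 62 bp, had 25.9 and 30.3 against 32.0 and 27.4. The 5 Psi18S-1377 copies of this gene lay 210 to 601 bp from an exon and had control means from 0.560 to 2.13, while RpS7 itself stood at 70.6 and 57.6 in the controls. In kra, which encodes a protein related to translation initiation factors, 5 near loci had control means from 4.98 to 13.7 and 3 far loci from 0.768 to 1.401, with the host at 13.3.

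The 2 largest groups of like-named loci, Psi18S-525 with 11 members and Psi18S-640 with 7, lay in Arpc2 but for snoRNA:Psi18S-525k, which lies in Msp300. Arpc2 encodes a subunit of the actin-nucleating Arp2/3 complex and held the most loci of any host, 17. It was expressed, at 6.32 and 7.84 in the controls against 8.995 and 9.51 in the knockdown libraries. Of its 17 loci 15 were far, and their control means ran from 0 to 0.437. The near loci were snoRNA:Psi18S-525j, at 82 bp, with 2.21 and 3.61 in the controls against 2.88 and 2.14 in the knockdown libraries, and snoRNA:Psi18S-640e, at 34 bp. The latter had 4.93 and 0 in the controls against 2.33 and 0 in the knockdown libraries, so it was read in 1 library of each group. snoRNA:Psi18S-525k, at 81 bp in Msp300, had 2.12 and 0 against 1.12 and 0.953.

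Lettered copies may be near-identical in sequence, and how reads that match several places were treated is not given in the sources used here, so values of single copies are uncertain. The difference between near and far loci was also present where a name stood for 1 locus. Among such names the median was 2.19 for 98 near loci and 0 for 47 far loci, and among lettered copies 2.46 for 53 and 0.170 for 56. Whether the authors extended reads before binning is not given either, and its part in the difference between near and far loci was not tested.

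Other small RNA loci, mostly microRNAs, also reached a signal of 1 more often near an exon than far from one. With an exon of signal 1 or more beside them, 29 of 45 near loci (64.4%) and 8 of 50 far loci had a signal of 1 or more. For snoRNA loci under the same condition the shares were 90.1% (91 of 101) and 19.4% (13 of 67). The near share was thus lower for the other small RNAs, and this difference was not tested.

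Ribosomal protein genes were the highest class of host. The 29 such hosts had control signals from 25.7 to 123 with a median of 59.7, and they held 74 loci. Of these, 45 were near, with a median of 32.9 and 44 at 1 or more. The 22 far loci of the same class had a median of 0.684 and 8 at 1 or more. All 17 Me loci in ribosomal protein genes were at 1 or more, and none was far, whereas 21 of the 42 Psi loci in this class were far.

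The Uhg genes were the opposite case, with many loci near exons and little signal. The 7 Uhg hosts held 48 loci, 44 of them near and 4 touching an exon. Only 14 of the 48 were at 1 or more, and the highest, snoRNA:Me28S-G2703c in Uhg5, had 7.25 and 8.20 in the controls against 5.58 and 7.46 in the knockdown libraries. Uhg1 held 16 loci and had a host signal of 0.283 and 0.564 in the controls against 0.662 and 0.132 in the knockdown libraries. Uhg7 was the highest of the 7 hosts, at 26.8 and 19.2 against 17.7 and 16.6. The 3 loci of Uhg7 nevertheless had control means of only 0.340 to 1.38, so low locus signal was not limited to low hosts. Uhg5 stood at a control mean of 1.20, and the other 4 Uhg hosts had control means from 0.280 to 1.14. In the bulk RNA used here, fewer cells with a transcript and less of it per cell cannot be told apart.

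Genes of the snoRNP proteins themselves were hosts in 3 cases. Nop60B held 7 loci, Fib held 1 locus and nop5, the fly Nop58, held snoRNA:nop5-x16-a. In Nop60B the highest locus was snoRNA:Or-CD9b, with 3.51 and 5.08 in the controls against 2.61 and 4.61 in the knockdown libraries. The locus in Fib had 5.52 and 7.32 against 10.1 and 4.29. The host Fib had 24.4 and 31.3 against 19.3 and 37.2, and Nop60B had 6.80 and 7.70 against 6.13 and 7.04. The groups overlapped for Fib and for its locus.

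The next comparison asked whether snoRNA loci or their hosts differ between dTet knockdown and control libraries. None of the members passed the test. A total of 123 snoRNA genes had a mean signal of 1 or more over the 4 libraries and were tested, and 148 were not. Of the 123, 0 were called at an adjusted p under 0.05 (limma, smallest adjusted p = 0.435), and of all 6050 genes tested 0 were called (0.0%). At an unadjusted p under 0.05 there were 19 snoRNA genes, which is 15.4% against 4.05% of all genes tested. Of these, 8 were higher in the knockdown libraries, where 1.06% of all genes were, and 11 lower, where 2.99% were. Other genes of at most 4 bins had 15 of 68 below that p, or 22.1%, so the share among snoRNA loci did not exceed that of other short genes. The median log2 change was -0.02 over the snoRNA genes and -0.03 over all genes tested. For 18 snoRNA genes (14.6%) the knockdown libraries were both above both controls, against 13.2% of all genes, and for 17 (13.8%) both were below, against 17.4%. Without knockdown 1, 2 snoRNA loci passed, snoRNA:Psi18S-841d (log2 change -2.14, limma, adjusted p = 0.0302) and snoRNA:Me28S-G3113a (-2.29, adjusted p = 0.0333), both at 0 in the knockdown library that remained. That fit has 1 knockdown library, so its spread comes from the controls alone and the lone library is assumed to vary as they do. The median log2 change moved to -0.075 without knockdown 1 and to 0.14 without knockdown 2.

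Counts by family and target ran as follows. Of 53 Psi loci tested 24 were higher and 29 lower (median log2 change -0.05), of 45 Me loci 20 were higher and 25 lower (-0.02), and of 25 other loci 14 were higher and 11 lower (0.10). Loci named for 18S had 10 higher and 18 lower with a median of -0.15, and those named for 28S had 32 higher and 35 lower with a median of -0.02. No difference between families was tested. Among the 47 tested with a control signal of 10 or more, 31 were higher and 16 lower, the median was 0.08, the changes ran from -0.997 to 0.41, and 1 had an unadjusted p under 0.05. A like count for all genes of that signal was not made. Loci of 1 host share its transcript and some overlap, so no direction is read from these counts.

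**Figure D3:**
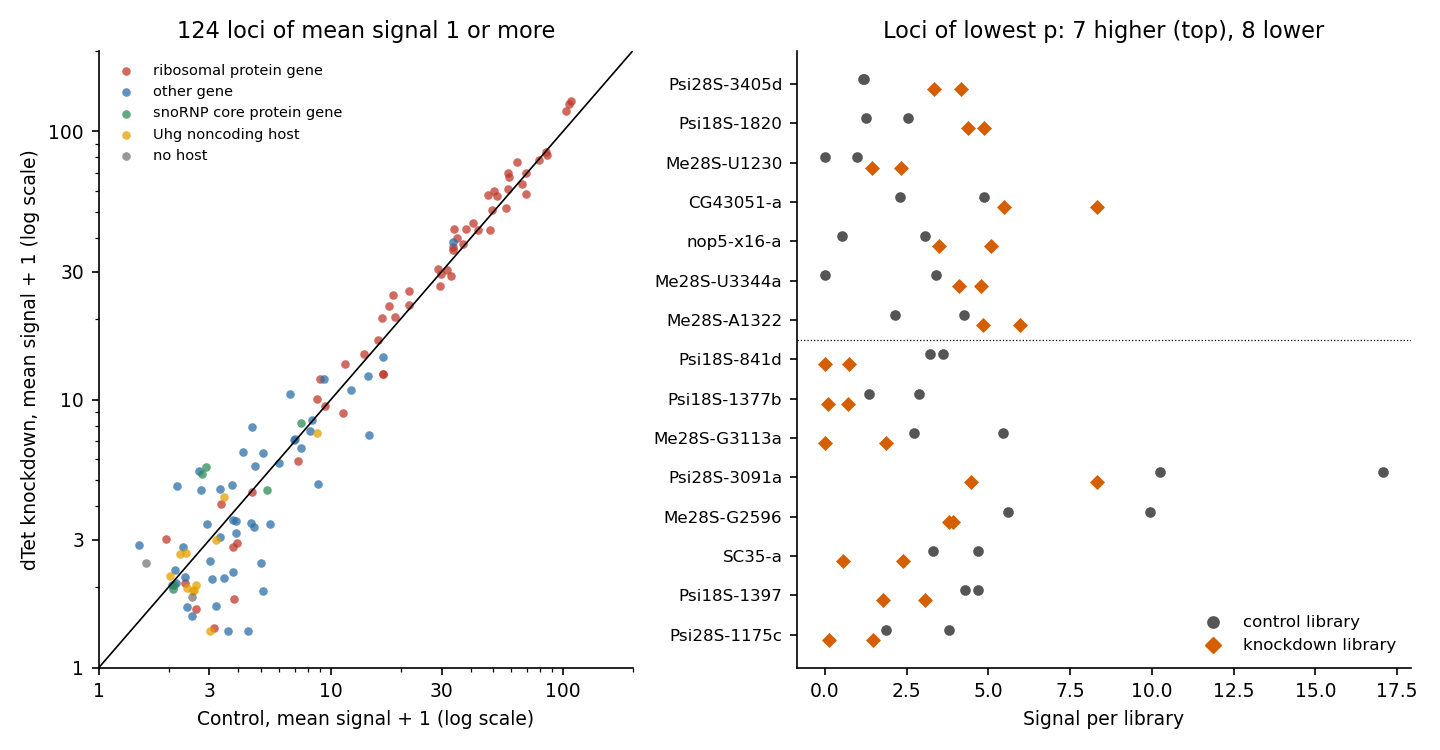
Left, mean signal + 1 in the control libraries (x axis) and the dTet knockdown libraries (y axis), both on log scales, for the 124 loci with a mean of 1 or more over the 4 libraries, coloured by host class. One of them belongs to snoRNA:Me28S-C2645c, whose value over all its loci was below 1, so 123 genes were tested. Right, signal in each library (circles, control; diamonds, knockdown) for the 7 higher loci (top) and 8 lower loci of lowest p. High loci lie close to the diagonal, and the loci of lowest p have control signals of 17.1 or less.

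The loci of lowest p are given here by their values, and none passed the test. snoRNA:Psi18S-841d, in an intron of dom, had 3.23 and 3.61 in the controls against 0.744 and 0 in the knockdown libraries, a log2 change of -1.74 (standard error 0.31, limma, adjusted p = 0.435). In reads summed over its 4 bins this was 38 and 37 against 8 and 0. Its host dom stood at 3.60 and 3.80 against 3.02 and 3.38, a log2 change of -0.16, so the locus and its host differed in size of change. Whether that difference exceeds the error was not tested.

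snoRNA:Psi28S-3405d (3R, 24428277 to 24428416), in an intron of Hrb98DE, was the extreme on the higher side. It had 1.19 and 1.17 in the controls against 3.35 and 4.17 in the knockdown libraries, a log2 change of 1.12 (standard error 0.22, limma, adjusted p = 0.667), which is 14 and 12 bin reads against 36 and 35. Hrb98DE, which encodes an RNA-binding protein of the hnRNP A family, had 17.5 and 16.2 against 16.8 and 15.4. snoRNA:Psi18S-1820 in Nop60B had 2.55 and 1.27 against 4.37 and 4.88. Each knockdown library lay above each control at both loci, while the hosts had log2 changes of -0.06 and -0.12.

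The other higher extremes had few reads. snoRNA:Me28S-U1230 in aru had 0 and 0.976 in the controls against 2.33 and 1.43 in the knockdown libraries, and snoRNA:Me28S-U3344a in CG1518 (now Stt3A, of the oligosaccharyltransferase) had 3.40 and 0 against 4.09 and 4.76. snoRNA:nop5-x16-a had 3.06 and 0.521 against 5.09 and 3.49. snoRNA:CG43051-a, in the span of bun, had 2.29 and 4.88 against 5.49 and 8.34. snoRNA:Me28S-A1322 in Ef1alpha48D, a translation elongation factor gene, had 4.25 and 2.15 against 4.84 and 5.96. The controls of these 5 loci differed from each other by 0.976 to 3.40, and by bin reads they held at most 70 in any library.

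On the lower side, snoRNA:Psi28S-3091a in kra was the only extreme with a control mean of 10 or more. It had 17.1 and 10.2 in the controls against 4.47 and 8.34 in the knockdown libraries, a log2 change of -0.997 (standard error 0.31), or 201 and 105 against 48 and 70 bin reads. Its host kra had 13.5 and 13.2 against 11.9 and 9.94, a log2 change of -0.27. snoRNA:Me28S-G3113a in CG13900 (now Sf3b3, a splicing factor subunit) had 5.44 and 2.73 against 1.86 and 0. snoRNA:Me28S-G2596, inside an exon of dom, had 5.61 and 9.96 against 3.91 and 3.81. snoRNA:SC35-a, in the gene of a splicing factor of the SR family, had 3.31 and 4.68 against 0.558 and 2.38. In all 4 the lower control stood above the higher knockdown library.

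snoRNA:Psi18S-1377b in RpS7 had 2.89 and 1.37 in the controls against 0.0930 and 0.715 in the knockdown libraries. snoRNA:Psi18S-1397 in CG10576 had 4.67 and 4.29 against 3.07 and 1.79, and snoRNA:Psi28S-1175c in RpS16 had 1.87 and 3.81 against 1.49 and 0.119. For all 8 lower and the 7 higher extremes given here the groups did not overlap, which the choice by p favours.

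No host passed the test either. Of 104 hosts 78 were tested, 0 were called (limma, smallest adjusted p = 0.9995) and 0 had an unadjusted p under 0.05. The count was 42 higher and 36 lower, with a median log2 change of 0.02. Among the 29 ribosomal protein hosts 18 were higher and 11 lower, with a median of 0.04. The hosts with the lowest p were Uhg7 (log2 change -0.38), nop5 (-0.34) and Arpc2 (0.35).

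The 8 core snoRNP protein genes were tested as the rest of the pathway, and 0 of 8 passed (limma, adjusted p = 0.9995 for each). Of the H/ACA proteins, Nop60B had a log2 change of -0.12, NHP2 0.02, Nop10 (CG7637) -0.45 and Gar1 (CG4038) 0.09. Gar1 had the highest control signal of the 8, at 53.4 and 59.0, with 53.7 and 66.6 in the knockdown libraries. Nop10 had 7.63 and 2.17 in the controls, so its controls lay further apart than its group means, 4.90 and 2.91. Of the C/D proteins, Fib had -0.04, nop5 -0.34, Nop56 -0.13 and hoip, the fly 15.5K protein, -0.27. nop5 had 9.50 and 11.3 in the controls against 7.81 and 8.10 in the knockdown libraries, with no overlap.

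The last comparison set the loci and hosts beside the hMeRIP peaks of both CRISPR lines. Few snoRNA loci were touched by a peak. The 1018 peaks of the yellow list touched 4 of 276 loci, or 1.45% (95% Wilson interval 0.565% to 3.67%), against 0.85% of all listed exons. The 964 peaks of the dTet list touched 12, or 4.35% (2.50% to 7.44%), against 1.51% of all listed exons. With 1 sample per line there is no replicate check, and the lists differ in peak width on the chromosome arms, with medians of 544 bp for yellow and 987 bp for dTet. The intervals cover counting error only. The share of all listed exons includes exons of silent genes and is not matched for signal. The median control signal was 5.47 over the hosts and 0.182 over all genes. Loci named for 28S made up 4 of the 4 and 7 of the 12, and 0 loci named for 18S were touched in either list. Among all 276 loci, 63 Psi and 64 Me loci were named for 28S, and 46 Psi and 30 Me loci for 18S. The touched loci share peaks, with 3 yellow and 9 dTet peaks involved, and a difference by target was not tested.

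All 4 loci of the yellow list were also touched in the dTet list. snoRNA:Psi28S-2996 (2L, 22428189 to 22428324) in RpL5 lay under a yellow peak of 230 bp (22428199 to 22428428) and a dTet peak of 1344 bp. The yellow peak covered 93.3% of the locus, and 34.8% of the peak lay in exons of RpL5. This locus had a control signal of 57.6 and 56.4, and its host 36.8 and 34.9. It was the only touched locus whose yellow peak lay mostly outside exons.

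In Hrb98DE a yellow peak of 816 bp (3R, 24428378 to 24429193) reached from snoRNA:Psi28S-3405d, of which it covered 28.1%, to snoRNA:Psi28S-3305c, of which it covered 66.9%. A dTet peak of 2343 bp covered both wholly, and 80.5% of snoRNA:Psi28S-3305b. snoRNA:Psi28S-3305c had a control signal of 10.96 and 16.01, while snoRNA:Psi28S-3305b had 0 and 0.195. The dTet peak had 52.2% of its length in exons. snoRNA:Me28S-G2596, which sits in an exon of dom, lay wholly under a peak of each list, and those peaks were fully exonic.

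The dTet list touched a further 8 loci. Besides snoRNA:Psi28S-3305b these were snoRNA:M and snoRNA:Me28S-G980 in sta, snoRNA:nop5-x16-a in nop5, the snoRNA locus in Fib, snoRNA:Dek-a in Dek, snoRNA:Edc3-a in Edc3 and snoRNA:Psi28S-2179 in RpL22. The overlap was whole for snoRNA:M, snoRNA:Me28S-G980, snoRNA:nop5-x16-a and the locus in Fib, and as small as 6 bp for snoRNA:Psi28S-2179. Hosts with a yellow peak beside the locus were nop5, whose yellow peak ended 57 bp from snoRNA:nop5-x16-a, Dek (21 bp) and Edc3 (228 bp). Each of the 12 loci lay in a host with a dTet peak in an exon, and such hosts held 48 loci in all. From 63.0% to 84.4% of the length of these dTet peaks outside Hrb98DE and dom lay in exons, except for 57.1% in RpL5.

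Over all detected hosts, the share with a peak in an exon was above that of detected genes at large, but not among the hosts of highest signal. Of the 77 hosts with a control signal of 1 or more, 15 had an exonic yellow peak, or 19.5% (95% Wilson interval 12.2% to 29.7%), against 5.59% of the 6086 genes at that level. For the dTet list it was 18, or 23.4% (15.3% to 34.0%), against 7.74%. Counting only peaks of 500 bp or wider left 7 hosts in the yellow list (9.09%, against 3.61% of all detected genes) and 18 in the dTet list (against 7.64%). The detected hosts had a higher control signal than detected genes at large, with medians of 13.5 and 2.99. In classes of signal chosen after the values had been seen, hosts from 1 to 5 had a yellow peak in 5 of 23 (21.7%) and all genes of that class in 3.49%. Hosts from 5 to 20 had one in 8 of 19 (42.1%) against 10.2%, and hosts of 20 or more in 2 of 35 (5.71%) against 13.8%. Summed over all exons of a gene, hosts were longer in the lower classes, with medians of 103 and 73 bins against 53 and 53, and of 29 against 33 in the highest class. The part of length in these shares was not tested.

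**Figure D4:**
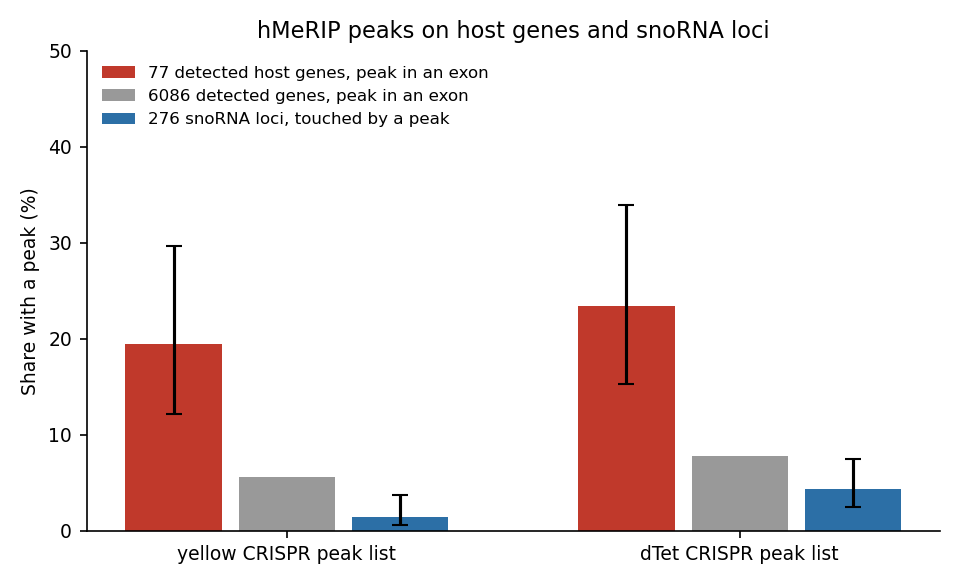
Share in percent with an hMeRIP peak in the yellow and dTet CRISPR lists, for the 77 detected host genes (red, peak in an exon), all 6086 detected genes (grey, peak in an exon) and the 276 snoRNA loci (blue, touched by a peak). Error bars are 95% Wilson intervals for counting error. Hosts stand at 19.5% and 23.4%, all detected genes at 5.59% and 7.74%, and loci at 1.45% and 4.35%.

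A peak in exons was seen in 14 hosts in both lists, in 4 in the dTet list alone (Fib, RpL22, sta and tou) and in 1 in the yellow list alone (pAbp). The 14 were Hrb98DE, crol, kis, nop5, RpL5, Nop60B, Dek, Eip75B, CG9253 (now pths), aru, CG5953, dom, Edc3 and csw. They include regulators such as Eip75B, an ecdysone-induced nuclear receptor, crol, a zinc finger protein, kis, a chromatin remodeller, and csw, a tyrosine phosphatase. Only 1 of the 29 ribosomal protein hosts had a yellow peak, RpL5, and 3 had a dTet peak, RpL5, RpL22 and sta. Of the 3 snoRNP hosts, Nop60B and nop5 had a peak in both lists and Fib in the dTet list. None of the 7 Uhg hosts had a peak in an exon in either list.

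In several hosts the peak lay far from the snoRNA locus. In csw the yellow peak lay 10406 bp from the locus, in crol 4617 bp, in kis 4054 bp and in CG5953 at least 17466 bp. In Eip75B the distance was 49170 bp. In Nop60B it was 430 bp for the yellow peak and 101 bp for the dTet peak, from snoRNA:Psi18S-1820. Of the 44 loci in hosts with an exonic yellow peak, 4 were touched by one.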

How the data were processed

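The 4 polyA RNA-seq files and 2 hMeRIP peak lists were used. The submitters' processing notes name BWA, MACS 1.4 and the dm3 build. The read counter, annotation, peak threshold and use of inputs are not given in the sources used here. Each deposited RNA-seq file lists exons with a signal, which low values show to be reads per 40-bp bin, averaged and scaled by 1 factor per library (100% of 22938 to 25295 exons whole within 0.05 read). Relative depth was 1.40, 1.22, 1.28 and 1, while the absolute depth cannot be read from them. Peaks were deposited as positions only, with no score.

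Overlapping exons were merged before averaging a gene over its bins. Small RNA genes and unplaced scaffolds were no hosts. Where a locus lay in several genes (14 loci), a Uhg gene, then a gene without a CR name, then the shortest was taken. Exon positions are printed as listed and can be off by 1 bp, and peak starts are counted from 1. Of the hosts, 92 had a current symbol and 12 matched as synonyms. No sequences are printed, since no sequence file was used here.

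The knockdown test used limma 3.58.1 (R 4.3.3, lmFit and eBayes with trend, two-sided) on log2(signal + 1) for genes averaging at least 1 over the 4 libraries, with Benjamini-Hochberg adjustment over all 6050. Log2 changes understate those of low genes. Whether replicates came from separate cultures is not stated in the labels, so p-values may measure technical spread. The code was checked on simulated data. Alternatives were other pseudocounts, filters, scalings, peak rules and leaving out each library.

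The members and lists were chosen with earlier results of these data known. The rule for named genes took dTet, the 10 highest loci, the 8 tested loci of lowest p in each direction, their hosts, the 8 hosts with most loci, every locus touched by a peak and its host, hosts with exonic peaks in both lists (12 by signal), the snoRNP core proteins and the 3 largest like-named groups. Others named were chosen after their values were seen. A few loci and hosts under this rule are not reported here.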

Additional observations from a re-analysis of the deposited data

How the results depend on the processing

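Of the results with an alternative, 54 were classed as unchanged and 11 as moved. Many were counts, which have no direction, and the class does not track sign. The median log2 change of snoRNA genes was -0.019 in the main fit. It was 0.017 with median centring and 0.029 without control 2, and both were classed as unchanged. Leaving out single libraries, the snoRNA genes called ranged from 0 to 2 and all genes called from 0 to 3, both reached without knockdown 1, where mir-2493 was the only call that was no snoRNA. Hosts called stayed at 0 to 0. The median log2 change of snoRNA genes ranged from -0.075 to 0.14, loci at 1 or more from 124 to 125, and the median log2 ratio of locus to host signal, -1.17 over all loci with a host, from -1.30 to -1.01. The median change was 0.056 with a filter at 5 (64 genes). Loci at a control signal of 5 or more numbered 63. The ratio of locus to host was -1.999 with a pseudocount of 0.1 and -0.65 with 5, since the pseudocount weighs on low loci. Counting peaks within 500 bp gave 11 loci for yellow and 19 for dTet, and only peaks of 500 bp or wider left 7 hosts with a yellow peak. With the replicate number as a block 0 snoRNA genes, 0 hosts and 0 genes were called and 18 snoRNA genes had an unadjusted p under 0.05. The deviations of same-numbered libraries from their group means had r = 0.014 across genes, so no shared deviation was seen. Whether same-numbered libraries were handled together is not stated in the labels, and this value cannot tell. Of 172 values of 17 named genes, 172 kept their direction and 45 moved by over 1.5 times. These genes were dTet and loci chosen by low p, and in each the groups did not overlap. Leaving out a library could therefore not reverse their direction, and the count says nothing on stability. Without knockdown 1 the log2 change was -2.14 for snoRNA:Psi18S-841d and -2.29 for snoRNA:Me28S-G3113a. The fit without knockdown 1 rests on the spread of the controls alone. The cause was not tested. With 2 libraries per group, short loci of few reads limit what can be called, and the median standard error was 0.28 for snoRNA genes and 0.23 for all genes.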

Other observations

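A total of 12 loci lay in the span of no longer gene. Of these, 2 were near an exon and 10 far, and 2 had a control signal of 1 or more. The highest was 1.53, and the values in that locus were 1.70 and 1.37 in the controls against 0 and 1.67 with knockdown. The U3 loci, which belong to the box C/D snoRNA that acts in the processing of the ribosomal RNA precursor, were among them. snoRNA:U3:9B was at 0 in all 4 libraries, and snoRNA:U3:54Ab, listed at 3 places, was at 0 but for 0.136 at 1 place in control 1.

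Loci that touch an exon were a mixed group. Of 22 such loci 10 were at 0 in all 4 libraries and 3 were at 10 or more. The latter were snoRNA:Me28S-U2134a in RpL13A (49.6 and 52.5 in the controls), snoRNA:Me18S-C1096 in RpL3 (control mean 48.4) and snoRNA:Or-aca2 in RpS6 (12.96).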
